A study of Mus musculus with 24 samples.

Results

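Wound libraries rich in hair keratin transcripts were compared with libraries poor in them, across all bandages of one mouse study. Each of the 24 libraries was given a score, the mean log2(CPM + 1) of 8 hair keratin genes, where CPM is a gene's share of its library's counts, scaled to a common total. The genes were Krt81, Krt83, Krt86, Krt31 and Krt34, keratins of the hair shaft, and Krt25, Krt27 and Krt71, keratins of the inner root sheath that encloses the growing shaft. The 6 libraries with the highest scores are called rich, the 6 with the lowest are called poor, and the other 12 are called intermediate. The libraries were thus chosen by their own transcript levels, so every difference between rich and poor below is a description without a test. The only test was run within the 12 intermediate libraries, which belong to neither set.

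The wounds were made on the back of male Lepr (db/db) mice on the C57BLKS/J background, which lack a working leptin receptor and become obese and diabetic. Every group carried this mutation, so no library comes from a mouse without diabetes. Mice were wounded at 16 weeks with a 6 mm biopsy punch and covered with an alginate bandage, which was renewed on day 3. Wounds were collected on day 10, when the mice were 17.5 weeks old. There were 6 plain control bandages (Ctrl), and the others carried macrophage-conditioned medium. The cells were in the M0 state for 4 mice (CM0), the M1 state for 4 (CM1), the M2a state for 5 (CMA) and the M2c state for 5 (CMC). Replicate numbers follow the order of deposition and only name the libraries.

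A hair follicle grows in cycles. During growth, matrix cells around the dermal papilla divide and then differentiate into the shaft and its root sheath under WNT, BMP and hedgehog signals, and melanocytes of the bulb pass pigment to the shaft. Shaft and inner root sheath keratins are made in growing follicles, so a tissue piece that holds growing follicles, in the wound or at its edge, carries their transcripts. In bulk tissue, a larger number of cells of a type and more RNA per cell cannot be told apart.

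The rich set held Ctrl 3 with a score of 8.47, CMA 3 with 4.45, Ctrl 4 with 4.12, CM0 2 with 3.20, CMA 2 with 2.53 and CMA 5 with 2.20. The poor set held CMA 1 with 0.318, Ctrl 5 with 0.293, CMC 3 with 0.253, Ctrl 2 with 0.201, CMC 2 with 0.121 and Ctrl 6 with 0.112. Just outside the rich set stood CMC 5 with 1.84, and just outside the poor set CM0 3 with 0.365. Both sets mixed bandages. The rich set had 2 Ctrl, 3 CMA and 1 CM0 libraries, the poor set had 3 Ctrl, 1 CMA and 2 CMC libraries, and all 4 CM1 libraries were intermediate. Control bandages therefore lay at both ends, with Ctrl 3 the highest library of all and Ctrl 6 the lowest.

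**Figure D1:**
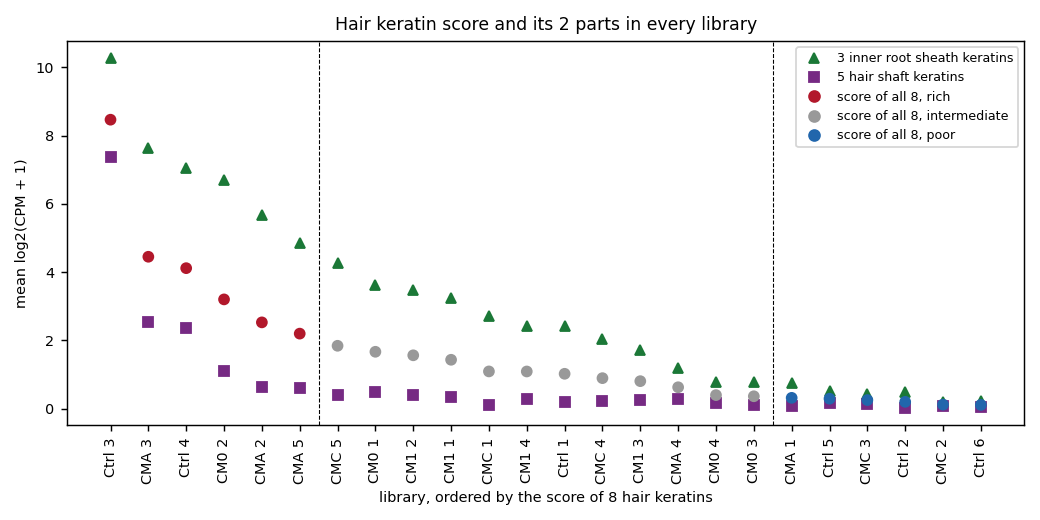
Mean log2(CPM + 1) of all 8 keratins (circles, coloured by set), of the 3 inner root sheath keratins (triangles) and of the 5 hair shaft keratins (squares) in each of 24 libraries, ordered by the score; dashed lines bound the rich and poor sets. The shaft keratins reach 7.39 in Ctrl 3 and at most 2.54 in any other library, while the inner root sheath keratins run from 10.3 in Ctrl 3 down to 0.182 in CMC 2, with 4.84 in the lowest rich library.

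The label hair shaft fits Ctrl 3 closely and the other rich libraries less. Krt83, a shaft keratin, stood at 244 CPM in Ctrl 3, 7.02 in Ctrl 4 and 6.08 in CMA 3, but at 2.27, 1.68 and 1.17 CPM in CM0 2, CMA 2 and CMA 5. Krt34 had 0 counts in CMA 2 and in CMA 5. The inner root sheath keratin Krt71 was high in all 6, at 2292 CPM in Ctrl 3 and 52.0 in CMA 5, against at most 0.879 CPM in the poor set. Keratin-associated proteins (Krtap), which cross-link shaft keratin late in differentiation, set Ctrl 3 apart more sharply. Of 58 annotated Krtap genes 55 reached 1 CPM in Ctrl 3, against 6, 6, 3, 1 and 0 in the other rich libraries and 0 to 2 in the poor ones. Their summed level was 1179 CPM in Ctrl 3 and 1.56 CPM in CMA 5. The poor libraries spanned 0.42 to 4.32 CPM, so CMA 5 and CMA 2 (3.96 CPM) overlapped them. The contrast is therefore one of inner root sheath transcripts in all 6 rich libraries and of mature shaft transcripts mainly in 1. Values without Ctrl 3 are therefore given beside many of the genes named below.

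Total counts ran from 7267879 to 11985292 over all libraries, and the sets overlapped in depth, in genes with a count (27005 to 28136 in the rich set, 27202 to 28582 in the poor set) and in the mitochondrial share of counts (0.748% to 1.34% and 0.935% to 1.12%). The counts of every pair of libraries differed by more than sampling noise. Of 54232 genes, 17755 had a mean of at least 1 CPM over the 24 libraries and were compared. Differences below are of mean log2(CPM + 1), rich minus poor, with the standard error (SE) over 6 and 6 libraries. Adding 1 CPM understates the fold change of low genes. With edgeR's fold change in its place, 45 of the values for named genes and lists moved by more than the spread between libraries and 100 did not, and with a pseudocount of 0.1 CPM 25 did. Among low genes, Foxe1 went from 2.20 to 7.36 and Shh from 2.06 to 4.78 with edgeR's fold change. The median difference of all genes was 0.02, with 55.0% of genes higher in the rich set.

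The pigment genes gave the sequences shown here, because 6 of them were among the genes highest in the rich set and the 5 of these with a promoter entry hold a well-known motif. The M-box core CATGTG is the sequence bound by MITF, the master regulator of melanocytes. CATGTG is one form of the wider E-box CANNTG. It was searched on both strands in the 250 bases before the start of each gene in the RefSeq promoters of GRCm38.p6, and a gene with several starts was counted once. Of the 6 pigment genes higher in the rich set without overlap, 5 have an entry and all 5 hold the core, against 1050 of 11161 protein-coding genes compared here (9.4%). Capitals mark CATGTG or, for Oca2, its reverse complement CACATG, and each window runs 5′ to 3′ on the strand of the gene. The Tyrp1 window is shorter because it overlaps an annotated exon. GENCODE starts Tyrp1 at 80834123, before this window, so the distances given below refer to the RefSeq starts.
Tyr, chr7:87493513-87493563, minus strand: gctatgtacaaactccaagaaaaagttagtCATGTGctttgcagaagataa
Tyrp1, chr4:80834157-80834182, plus strand: gggagggagtCATGTGctgcctagta
Dct, chr14:118052361-118052426, minus strand: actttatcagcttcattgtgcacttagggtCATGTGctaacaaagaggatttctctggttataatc
Trpm1, chr7:64153664-64153729, plus strand: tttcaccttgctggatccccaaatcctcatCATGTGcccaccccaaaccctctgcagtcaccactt
Oca2, chr7:56239543-56239608, plus strand: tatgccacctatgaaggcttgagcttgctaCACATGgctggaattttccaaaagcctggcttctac
The core begins 21 bases before the start of Tyr, 46 before Tyrp1, 150 before Dct, 141 before Trpm1 and 186 before Oca2. Tyr, Tyrp1, Dct and Trpm1 have it in the same orientation relative to the gene. Dct has another match, on the opposite strand, 232 bases before its start. These are matches of 6 letters and not binding sites shown by these data. Over the whole melanocyte list, 8 of 13 genes with an entry hold the core, and Mitf itself was not among the higher genes.

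The same windows were searched for 2 other motifs that belong to regulators described below. CTTTGA, the core bound by LEF1 and its relatives, occurred in 10 of 31 non-keratin genes higher in the rich set that have an entry, against 1472 of 11161 genes (13.2%). The trichohyalin gene Tchh, a gene of the inner root sheath described below, holds it on both strands within a short stretch, shown because both matches lie in 1 window.
Tchh, chr3:93442142-93442207, plus strand: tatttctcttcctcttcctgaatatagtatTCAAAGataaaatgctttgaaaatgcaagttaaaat
Here capitals mark the reverse complement, TCAAAG, which begins 158 bases before the start, and the forward core follows at 144. The hedgehog motif GACCACCCA, bound by GLI factors, occurred in 0 of the 31 genes and in 26 of 11161 (0.2%), which says only that these letters are not in these windows.

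Over the whole table of 17755 genes, 59 were at least 2-fold higher in the rich set with no overlap between the sets, which is 0.332% of all genes, and 1 gene, Ccl3, was at least 2-fold lower (0.00563%). Of the 59, 13 were keratins, 6 of them in the score itself, and 0 were Krtap genes. The other 46 are the subject of what follows, with differences of up to 5.23. Just inside the 2-fold limit stood St14 with 1.12, and just outside it Nhs with 0.99 and Penk with 0.96.

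How far the 46 genes rested on Ctrl 3 differed. Ctrl 3 was the highest rich library for 44 of them, the exceptions being Shh and Defb6. Without Ctrl 3, 38 of the 46 remained at least 2-fold higher in the rich set. Within the control bandages alone (2 rich and 3 poor libraries) 45 were at least 2-fold higher, and within CMA (3 rich libraries and 1 poor) 26 were. Their direction in these subsets is fixed by the rule that the sets do not overlap. For 43 of the 46 the median of the intermediate libraries lay between the rich and poor medians, the exceptions being Corin, Wif1 and Ptch1. The share over all genes was 39.2%, but the 46 were chosen for a wide gap between the sets. A median falls within a wide gap more readily, so the shares cannot be compared fairly. Of the 46, 14 passed the filter on low values only through their level in the rich set, so that those had to differ. Dsg4, S100a3, Hoxc13, Foxe1, Shh, Tyr, Oca2, Gm49425, Fbp1, Capn8, Dclk3, Ggt1 and Slc24a4 are among these, and their values below are descriptions only.

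On the scale used here, the largest difference outside the keratins was that of Tchh (chr3:93442330-93449077), trichohyalin, which hardens the inner root sheath and the medulla of the shaft. Tchh stood at 3598, 304, 303, 139, 79.1 and 39.3 CPM in the rich libraries in the order of their score. In the poor libraries it lay between 3.17 and 7.36 CPM, with a median of 5.29, so that the lowest rich library was well above the highest poor one. The difference was 5.23 (SE 0.93), and 4.44 without Ctrl 3. That rank depends on the scale. With edgeR's fold change Tchh stood at 7.08, below Gm49425 at 7.64 and Foxe1 at 7.36, both of them low in the poor set. Enzymes and structural proteins of the shaft went the same way. Padi3, which converts arginine of trichohyalin to citrulline, stood at 3.31 to 127 CPM in the rich set (median 13.1) and at 0.501 to 1.91 in the poor set (median 0.921), a difference of 2.99 (SE 0.71), and 2.38 without Ctrl 3. Dsg4, the desmoglein that holds shaft cells together, stood at 1.46 to 61.3 CPM (median 6.49) against 0 to 0.418 (median 0.143), a difference of 2.88, or 2.31 without Ctrl 3. S100a3, a calcium-binding protein of the cuticle, stood at 0.975 to 93.5 CPM (median 3.99) against 0 to 0.478 (median 0.188), a difference of 2.56, or 1.82 without Ctrl 3. Padi3 did not overlap between the sets, and nor did Dsg4 and S100a3, which passed the filter only through the rich set.

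Late shaft genes were less even. Of 14 listed shaft genes other than keratins 13 passed the filter, 3 of them only through the rich set. All 13 were higher on average in the rich set, with a median difference of 1.15, or 0.65 without Ctrl 3, against 0.02 over all genes. Only Padi3, Dsg4 and S100a3 met the 2-fold rule without overlap. Gprc5d, a receptor of the shaft cortex, stood at 35.5 CPM in Ctrl 3 and 1.11 in CMA 3, and between 0 and 0.963 in the other 4 rich libraries. Its difference was 1.15, and 0.36 without Ctrl 3. Vsig8 likewise stood at 138 CPM in Ctrl 3 and 6.61 to 15.0 CPM in the other rich libraries, within reach of the 3.13 to 9.80 CPM of the poor set, and its difference without Ctrl 3 was 0.56. Prr9 and Crym, both shaft genes, had differences of 1.97 and 1.78 with overlap, or 1.33 and 1.22 without Ctrl 3. In the inner root sheath list 8 of 8 genes were higher, with a median of 0.67. Cux1, a repressor found in the sheath, stood at 170 to 373 CPM against 121 to 147 with no overlap (difference 0.68), while Gata3, which specifies the sheath, overlapped (0.59).

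Transcription factors of the hair matrix gave 8 of the 46 genes. Of 21 listed factors 16 passed the filter, 15 were higher in the rich set, and these 8 met the 2-fold rule without overlap, with a median difference over the 16 of 1.02, or 0.88 without Ctrl 3. Lef1, the WNT effector of the matrix and precortex, stood at 48.1, 8.41, 12.1, 10.7, 4.45 and 3.22 CPM in the rich libraries and at 0.209 to 2.26 CPM in the poor ones (median 0.827). Its difference was 2.50 (SE 0.54), and 2.07 without Ctrl 3. Msx2, a homeobox factor needed to keep the shaft in place, stood at 3.22 to 41.3 CPM (median 7.80) against 0.417 to 2.01 (median 0.948), a difference of 2.17, or 1.74 without Ctrl 3. Hoxc13, which drives shaft keratin genes, stood at 2.05 to 40.9 CPM (median 5.54) against 0.25 to 1.67 (median 0.649), a difference of 2.16, or 1.66 without Ctrl 3. All 3 factors were above every poor library in each rich library.

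Foxe1, a forkhead factor of the follicle, was close to absent from the poor set, with 0 counts in 5 of the 6 libraries and 0.117 CPM in CMC 3, against 1.07 to 19.4 CPM in the rich set. Dlx3 stood at 15.0 to 104 CPM against 2.34 to 13.1, and Msx1 at 3.22 to 12.8 against 1.17 to 2.16. Vdr, the vitamin D receptor required for hair cycling, differed by 1.22 (0.99 without Ctrl 3, below the 2-fold limit) and Sox21, a factor of the shaft cuticle, by 1.19. Foxn1, the nude gene, which acts in the matrix and in the epidermis, had a smaller difference of 0.73 with overlap. Runx1 was the only listed factor that was lower in the rich set (-0.42, with overlap).

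**Figure D2:**
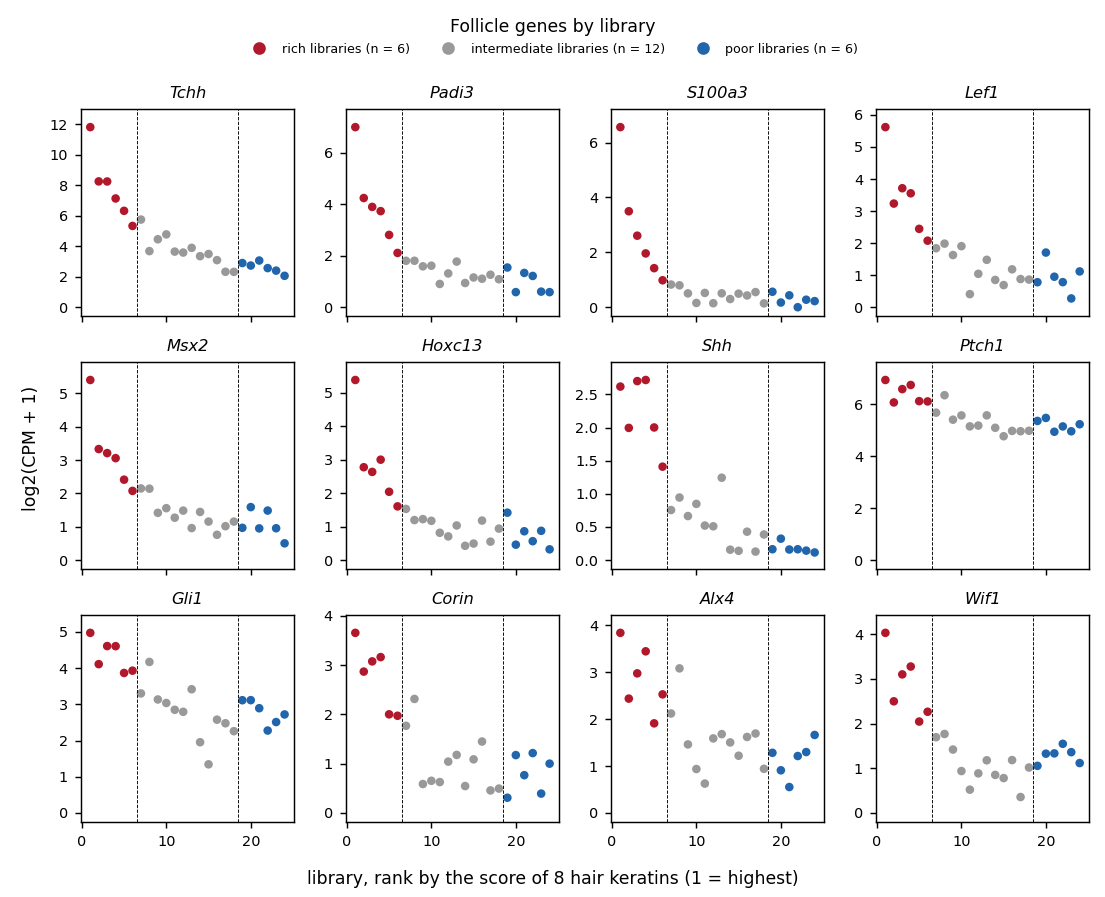
Level of 12 follicle genes as log2(CPM + 1) in each of 24 libraries, ranked from the highest score (1) to the lowest (24); red points are the 6 rich, grey the 12 intermediate and blue the 6 poor libraries. Tchh, a gene of the inner root sheath, and the shaft genes Padi3 and S100a3 peak in Ctrl 3. Shh is as high in Ctrl 4 and CM0 2 (5.58 CPM) as in Ctrl 3 (5.14 CPM).

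Genes of the hedgehog pathway were higher in the rich set. Shh is the secreted ligand made by matrix cells, PTCH1 is its receptor, HHIP binds and limits it, and GLI1 is the transcription factor at its end, with Ptch1, Hhip and Gli1 all being targets of the pathway. Shh stood at 5.14, 2.99, 5.50, 5.58, 3.00 and 1.66 CPM in the rich libraries and at 0.0834 to 0.251 CPM in the poor ones (median 0.118). It passed the filter only through the rich set, so it had to differ. Unlike the shaft genes described above it was not highest in Ctrl 3, and its difference of 2.06 (SE 0.22) was 1.99 without that library. Hhip stood at 3.51 to 12.1 CPM (median 6.13) against 0.25 to 1.56 (median 0.605), a difference of 2.08. Gli1 stood at 13.6 to 30.4 CPM (median 19.8) against 3.84 to 7.66 (median 6.01), a difference of 1.58. Ptch1 stood at 66.0 to 121 CPM against 29.7 to 43.3, a difference of 1.24 (SE 0.18). None of these 4 overlapped between the sets.

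Other follicle signals differed less. Of 30 listed signalling genes 25 passed the filter and 23 were higher in the rich set, with a median of 0.50. Outside the hedgehog pathway, 0 of the listed signals met the 2-fold rule without overlap. Wnt10b, a ligand that promotes follicle growth, stood at 6.04 to 22.3 CPM against 3.92 to 8.52 (difference 0.89), and Wnt11 differed by 0.85, both with overlap. Bmp4 differed by 0.68 and Axin2, a general WNT target, by 0.33, both with overlap. Fgf7, a growth factor of the dermis, was the lowest of the list, at -0.38 with overlap.

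Genes of the dermal papilla, the mesenchyme that instructs the matrix, were split. Of 17 listed genes 15 passed the filter, 12 were higher in the rich set and 3 met the 2-fold rule, with a median of 0.37. Corin, a protease of the papilla during growth, stood at 11.6, 6.30, 7.43, 7.95, 3.00 and 2.92 CPM in the rich libraries and at 0.239 to 1.32 in the poor ones (median 0.851). The difference was 1.98 (SE 0.32). Alx4, a homeobox factor, stood at 2.76 to 13.3 CPM against 0.467 to 2.17, and Wif1, a secreted WNT inhibitor, at 3.12 to 15.3 against 1.08 to 1.92, with differences of 1.70 and 1.58. For Corin and Wif1 the intermediate median, 0.815 and 0.969 CPM, lay below the poor median, so their levels did not grade down to the poor set. Corin reached 3.97 CPM in an intermediate library, within the range of the rich set. Inhba and Spon1, which dermal fibroblasts also express, were lower on average in the rich set, with differences of -0.91 and -0.44 and with overlap.

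Markers of follicle stem cells and of the permanent upper follicle were mixed. Of 13 listed genes 10 were higher, with a median of 0.35, or 0.14 without Ctrl 3, and 2 did so without overlap. Their mean log2(CPM + 1) was 4.29 to 5.22 in the rich libraries and 3.96 to 4.30 in the poor ones. Lgr5, a receptor of cycling follicle stem cells, stood at 40.4 to 86.8 CPM in the rich set and at 35.2 to 93.8 in the poor set (difference -0.06). Cd34, a bulge marker that vessels also express, differed by -0.15. The 2 members without overlap were Tbx1 and Foxc1, a forkhead factor of the bulge. Foxc1 stood at 6.73 to 24.4 CPM against 2.92 to 5.28, a difference of 0.96, or 0.70 without Ctrl 3. Tbx1 stood at 5.36 to 29.9 CPM against 1.57 to 2.51 without overlap, and Lhx2 at 4.81 to 23.2 against 0.934 to 5.02 with overlap, with differences of 1.69 and 1.54.

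Some pigment genes separated the sets and others did not. Of 19 listed melanocyte genes 16 passed the filter, 2 of them only through the rich set. Of these 12 were higher and 6 met the 2-fold rule without overlap, with a median of 0.60, or 0.32 without Ctrl 3. Dct (chr14:118012790-118052244), the tautomerase of melanin synthesis, stood at 139, 28.3, 27.7, 31.2, 13.6 and 12.2 CPM in the rich libraries and at 2.00 to 4.18 CPM in the poor ones (median 2.83). Its difference was 2.93 (SE 0.51), and 2.48 without Ctrl 3. Tyrp1, a related enzyme, stood at 4.87 to 103 CPM (median 16.7) against 0.72 to 2.50 (median 1.27), a difference of 2.84, or 2.32 without Ctrl 3. Tyr, tyrosinase, the first enzyme of the pathway, stood at 1.85 to 41.0 CPM (median 6.91) against 0.234 to 0.879 (median 0.489), a difference of 2.42, or 1.95 without Ctrl 3. These 3 enzymes carry the M-box cores printed above.

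Pmel, the fibril protein of pigment granules, differed by 2.30, the channel gene Trpm1 by 2.03 and Oca2, a granule membrane protein, by 1.74. Oca2 rested on few counts, at 0.24 to 22.3 CPM against 0 to 0.239, so that the sets only just separated. Mlana, another granule protein, stood at 19.6 CPM in Ctrl 3 but 1.95 to 3.51 CPM in the other rich libraries, against up to 3.36 in the poor set. The regulators and receptors of melanocytes did not separate the sets. Mitf stood at 41.0 to 55.6 CPM in the rich set and at 49.1 to 68.3 in the poor set (difference -0.17, SE 0.10), Kit differed by 0.29, Ednrb by -0.22 and Sox10 by 0.46. Mitf, Kit and Ednrb are also expressed by other cells of skin, mast cells and vessels among them.

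**Figure D3:**
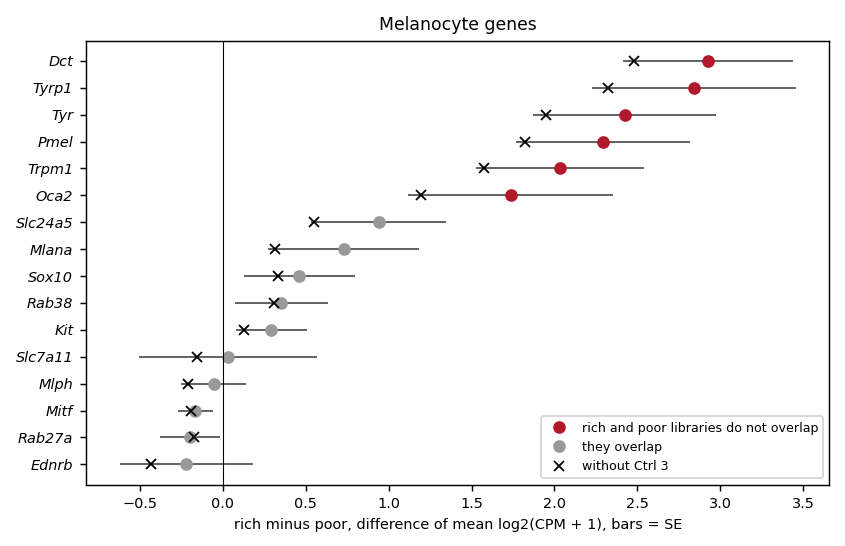
Rich minus poor difference of mean log2(CPM + 1) for the 16 melanocyte genes that passed the filter, with bars for the SE over 6 and 6 libraries, red points where the sets do not overlap, grey points where they do, and crosses for the value without Ctrl 3. The 6 genes from Dct (2.93) to Oca2 (1.74) stand apart from regulators such as Mitf (-0.17).

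Outside the lists, 19 further genes met the rule. The highest was Gm49425 (chr15:101515920-101517261), at 3.70 to 101 CPM in the rich set against 0 to 0.234 in the poor set, a difference of 3.76. It lies between Krt83 and Krt84 in the type II keratin cluster, and 63.1% of the 31-base words of its transcript also occur in Krt87. Reads of the 2 genes may therefore not be told apart, and Gm49425 is best read with the keratins. The shaft keratins share sequence in the same way, since 42.5% of the words of Krt86 occur in Krt81. Golga7b and Fbp1, the gluconeogenic enzyme fructose bisphosphatase, both differed by 2.17. Capn8, a calpain, stood at 1.36 to 22.7 CPM against 0 to 0.377, and the kinase gene Dclk3 at 1.66 to 17.5 against 0.104 to 0.956. Mycn, a MYC family factor, stood at 2.52 to 21.2 CPM against 0.24 to 1.43 (difference 1.99), and Scube3, a secreted signalling protein, at 10.7 to 33.1 against 3.27 to 7.41 (1.74). Ggt1 differed by 1.75 (1.29 without Ctrl 3), Slc24a4 by 1.59 (1.09), Cybrd1 by 1.53 (1.06), Hist3h2ba by 1.45 and Lipg by 1.39.

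A pair of genes named after their values were seen bears on metals and on the model. Slc39a10, a zinc importer, stood at 55.8 to 261 CPM against 32.8 to 44.3, a difference of 1.29, or 0.99 without Ctrl 3. Lepr, the gene that is mutated in every mouse here, stood at 5.17 to 10.0 CPM in the rich set and at 2.92 to 3.84 in the poor set without overlap, a difference of 0.94. The transcript is thus counted in these mice, and its level says nothing of a working receptor.

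Fewer genes were lower in the rich set, and by less. Without the 2-fold rule 30 genes were lower without overlap (0.169% of genes), against 159 higher (0.896%). Ccl3 (chr11:83647844-83649355), a chemokine of macrophages and neutrophils, stood at 2.30, 1.55, 1.38, 3.41, 0.961 and 3.41 CPM in the rich libraries and at 5.38, 4.65, 7.12, 4.08, 5.43 and 5.59 in the poor ones, a difference of -1.06 (SE 0.22). Without Ctrl 4 or without CMC 3 the 2-fold rule was no longer met, and it was no longer met without CMA 2. Outside the lists, 12 lower genes without overlap were taken by the size of the difference. Aebp1, a collagen-binding protein, stood at 686 to 742 CPM against 864 to 1045 (difference -0.41), and Mmp14, a membrane collagenase, at 561 to 702 against 704 to 924 (-0.37). Ecm1, an extracellular matrix protein, differed by -0.46, Ccn3 by -0.52 and Colec12, a scavenger receptor, by -0.43. Rab33a (-0.82) and Hapln4 (-0.64) had the largest differences of these 12, at levels of at most 2.34 and 10.0 CPM.

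Chemokine genes were lower in the rich set as a list, though only Ccl3 did so without overlap. All 9 listed genes were lower, with a median of -1.08, or -1.16 without Ctrl 3. Their summed level was 16.8 to 33.0 CPM in the rich libraries, 26.7 to 160 in the poor ones and 23.6 to 596 in the intermediate ones. Their mean log2(CPM + 1) was 1.27 to 1.83 in the rich set. In the poor set it was 3.77 in CMC 2, 3.62 in Ctrl 6 and 2.89 in CMC 3. It was only 2.00 in CMA 1, 1.71 in Ctrl 5 and 1.53 in Ctrl 2. The rich set held no CMC library, so bandage and set cannot be told apart for CMC. The list median was -0.93 within the control bandages and -0.72 within CMA. Cxcl5, a neutrophil attractant, stood at a median of 1.06 CPM in the rich set and at 0.12 to 50.4 CPM (median 4.24) in the poor set, a difference of -1.77 that was the most variable of the list. Cxcl3 differed by -1.54 and Il1b, the inflammatory cytokine, by -1.58, both with overlap. Among neutrophil genes 10 of 11 were lower, with a median of -0.67, but S100a9, an abundant neutrophil protein that keratinocytes also make, spanned 6.05 to 240 CPM in the rich set and 6.96 to 124 in the poor set. Across the rich, intermediate and poor medians the relation to the score was not graded. The median of Cxcl2, named after its values were seen, was 1.44 CPM in the rich, 20.6 in the intermediate and 8.95 in the poor set, so the intermediate libraries had the highest levels and not the poor ones.

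**Figure D4:**
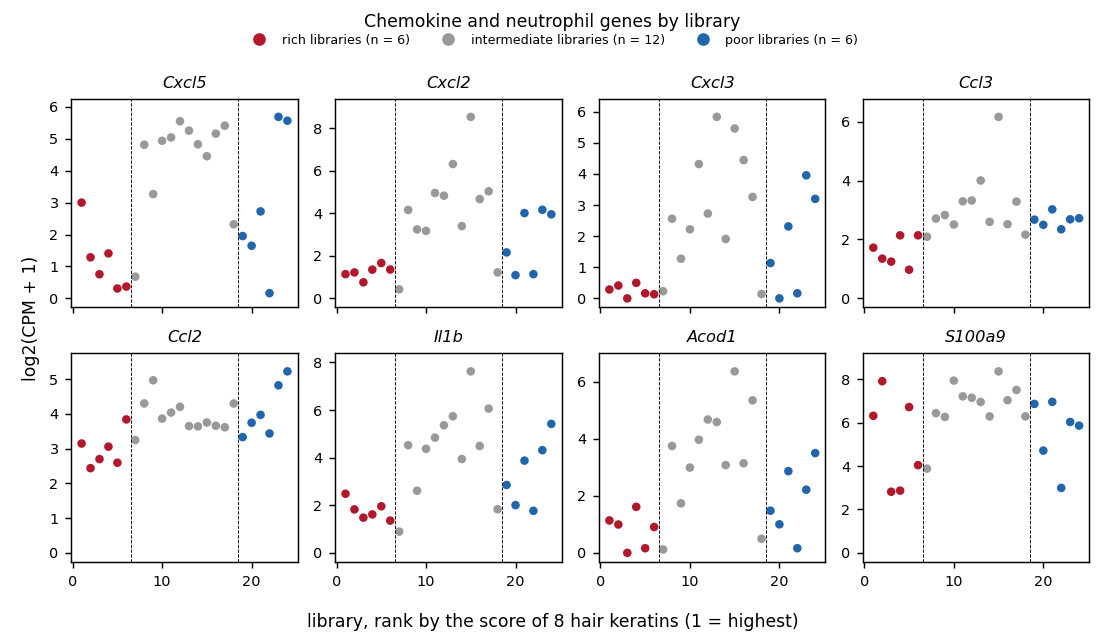
Level of 8 chemokine and neutrophil genes as log2(CPM + 1) in each of 24 libraries, ranked by the score from highest (1) to lowest (24), with rich libraries in red, intermediate in grey and poor in blue. Cxcl2 lies at 0.688 to 2.16 CPM in the rich libraries, while the poor ones range from 1.13 to 16.9 CPM and the highest values lie in the intermediate libraries.

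Other tissues in the piece moved with the sets too, and their part in the follicle differences was not tested. All 19 skeletal muscle genes compared were higher in the rich set, with a median of 0.55, or 0.33 without Ctrl 4. Their summed level overlapped widely, at 5547 to 36050 CPM against 7102 to 34114, and CMA 3, the second library by score, had the lowest sum of the rich set. All 20 genes of the cornified epidermis were higher (median 0.37), with overlap in every one. All 28 cell cycle genes were higher (median 0.22, or 0.12 without Ctrl 3), Top2a by 0.48. The 22 ribosomal protein genes were all slightly higher (median 0.13). Lower on average were all 18 dermal matrix genes (median -0.22), all 15 endothelial genes (-0.23) and all 11 macrophage genes (-0.30), each with overlap in every gene. The macrophage median was -0.26 within the control bandages but 0.17 within CMA, while the dermal matrix and endothelial medians were negative in both. Sebaceous (0.13), adipocyte (0.10), T cell (0.01) and wound epidermis (0.01) lists had medians near that of all genes. The adipocyte median was -0.21 within the control bandages and 0.74 within CMA, and wound epidermis genes ran from -0.62 to 1.03.

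**Figure D5:**
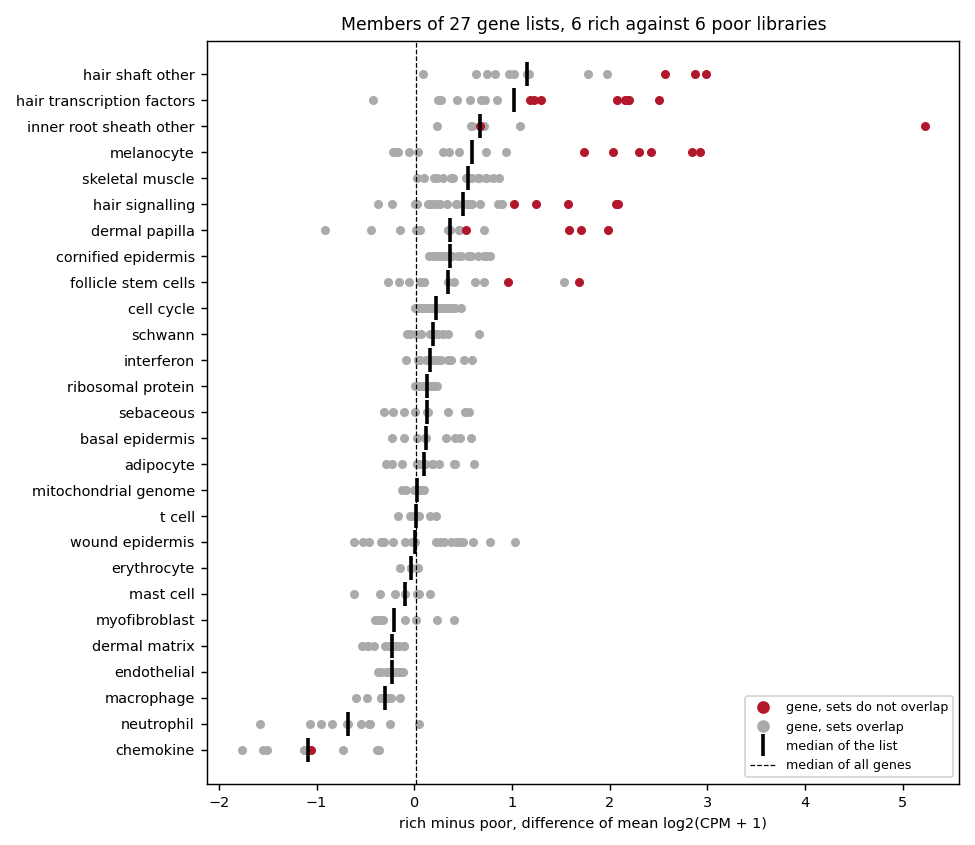
Rich minus poor difference of mean log2(CPM + 1) for every gene of 27 lists that passed the filter, red where the sets do not overlap and grey where they do; black ticks are list medians and the dashed line is the median of all genes, 0.02. List medians run from -1.08 (chemokine) to 1.15 (hair shaft other).

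Whether genes also move with the score among libraries that the contrast did not use was tested in the 12 intermediate libraries, whose scores spanned 0.365 to 1.84. The slope of each gene on the score was fitted with edgeR's quasi-likelihood test, adjusted by Benjamini-Hochberg over 17753 genes. It called 7 genes as rising (0.0394% of genes) and 0 as falling (0.0%). At an unadjusted p under 0.05 there were 549 rising and 626 falling genes. DESeq2 called 19 rising (0.107%) and 36 falling (0.203%), and limma with voom 5 (0.0282%) and 0. Of the 7 rising genes, Krt71, Krt25 and Krt27 are part of the score, so their calls are not an independent result. Krt81, Krt83 and Krt86, also in the score, had slopes of 2.26, 0.95 and -0.42 and were not called. In these libraries the mean of the shaft keratins was only 0.105 to 0.488, and that of the inner root sheath keratins 0.794 to 4.26. The score here thus follows mainly the inner root sheath keratins. The other 4 were Krt73, a further inner root sheath keratin, Krt35, a shaft keratin, Gm49425 and Tchh.

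Tchh rose by 2.04 log2 units per unit of score (SE 0.27, edgeR adjusted p = 0.0136), from a median of 11.3 CPM in these libraries and a range of 3.99 to 52.8. Over 17 alternatives its slope stayed between 1.66 and 2.29 and was called in 12, with adjusted p from 1.34e-10 to 0.214. It was not called with bandage as a term (slope 1.76, adjusted p = 0.122), in limma, or without CMC 5, CM0 3 or CM0 4. Gm49425 rose by 3.05 (SE 0.47, adjusted p = 0.0339), and was called in 8 of 17 alternatives, with adjusted p up to 0.222. Krt73 rose by 2.73 (adjusted p = 0.0061) and was called in 16 of 17, and Krt35 by 2.37 (adjusted p = 0.046), called in 6 of 17. Tchh and Gm49425 are thus the 2 of the 46 that also passed this test. Gm49425 passed the filter only through the rich set and is best read with the keratins, which leaves Tchh.

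Among the rest of the 46, most slopes had the same sign. In all 41 of the 46 had a positive slope, against 50.8% of all genes, the exceptions being Dlx3, Lipg, Defb6, Mfsd2a and St14. The 46 were chosen by the contrast, and 14 of them passed the filter only through the rich set. Taken whole, the follicle and pigment lists were less uniform. Positive and negative slopes numbered 6 and 7 in the shaft list, 4 and 4 in the sheath list and 12 and 13 among signals. They numbered 9 and 7 for transcription factors, 10 and 5 for the papilla, 9 and 4 for stem cells and 13 and 3 for melanocytes. Pigment and hedgehog genes had sizeable slopes that did not pass. Dct had a slope of 1.72 (SE 0.33, adjusted p = 0.173) and Ptch1 one of 0.72 (SE 0.16, adjusted p = 0.282). Dct was called in DESeq2 (adjusted p = 0.000775) and in none of the other 16 alternatives, where its adjusted p reached 0.44. Ptch1 was called with bandage as a term (slope 0.92, adjusted p = 0.0164) and in DESeq2, and in none of the other 15 alternatives, where its adjusted p reached 0.63. Lhx2, which overlapped between the sets, had a slope of 1.80 (adjusted p = 0.153). The epidermal genes did not repeat their direction. Of the 20 cornified epidermis genes, all higher in the rich set, 19 had a negative slope here (median -0.49), and none was called. All 11 neutrophil genes compared and 7 of 9 chemokine genes also had a negative slope (medians -1.03 and -0.99). That is the direction of their rich minus poor medians, and none of them was called either. Other lists went both ways, again without a call. Slopes were negative for 20 of 22 ribosomal protein genes and 12 of 19 muscle genes, opposite to the contrast. They were positive for 12 of 15 endothelial and 10 of 11 macrophage genes, also opposite. Slopes of 27 of 28 cell cycle genes were positive and of 12 of 18 dermal matrix genes negative, as in the contrast. Tgm3, a transglutaminase of both shaft and epidermis, was 0.83 higher in the rich set and had a slope of -0.92 (adjusted p = 0.173).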

How the data were processed

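The authors deposited raw gene counts, 1 table of 54232 genes for each of 24 libraries. Per the labels' protocols, ribosomal RNA was removed and libraries were made with a NEBNext Ultra kit, which does not mark the strand, so overlapping genes cannot be told apart. The submitters' processing notes name bcl2fastq 2.17, FastQC, cutadapt, STAR, featureCounts, DESeq2 and GRCm38; no annotation release is stated in the sources used here. Symbols and coordinates come from GENCODE on GRCm38.

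CPM, the score and the sets were computed from the counts with Python 3.11.15 and pandas 2.3.3. Genes with a mean of 1 CPM over all libraries were kept, and a pseudocount of 1 was used. A gene was called between the sets at a difference of at least 2-fold with no overlap. Slopes over the intermediate libraries used edgeR 4.0.16 (TMM scaling, robust quasi-likelihood fit, adjusted p under 0.05) in R 4.3.3, checked on simulated counts, with limma 3.58.1 and DESeq2 1.42.0 as alternatives. The labels do not say whether replicates share a cage or day, so p-values measure only the spread between these libraries.

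The libraries, the 27 gene lists and the motifs were chosen with earlier results of these data known. Named genes may be all members of the follicle and pigment lists, the 2 largest differences of each other list, the 12 highest and 12 lowest outside the lists, and genes called by slope. Ccl2, Cxcl2, Ccl3, S100a9, Defb6, Mfsd2a, St14, Nhs, Penk, Lepr and Slc39a10 lie outside that rule and were named after their values were seen. The values of 1 follicle gene are not reported here.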

Additional observations from a re-analysis of the deposited data

Results flagged for a closer look

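Within each set of 6 libraries, the highest and lowest were compared with the nearest other library, and a gap that took up more than Dixon's limit of the whole range was recorded. Of 290 such comparisons 27 were recorded, and 19 of them were Ctrl 3 among the rich libraries. Dixon's limit is set at a rate of about 1 in 20 for independent, normally distributed values. The sets here were chosen by transcript levels and many of these genes vary together, so that rate is no reference for the count. The cause was not tested.

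In Ctrl 3 the shaft and sheath genes stood far above the other rich libraries, with Vsig8 at 138 CPM, Gprc5d at 35.5, Padi4 at 24.8 and Tchhl1 at 64.9. The same held for the follicle factors Hoxc13 at 40.9 CPM, Foxe1 at 19.4, Trps1 at 156, Tbx1 at 29.9 and Foxc1 at 24.4. Among pigment genes Pmel stood at 158 CPM, Trpm1 at 56.5 and Mlana at 19.6, and the melanocyte list had a mean log2(CPM + 1) of 5.16. Outside the lists Capn8 stood at 22.8 CPM in Ctrl 3, Ggt1 at 17.7, Slc24a4 at 21.9, Cybrd1 at 27.6, Hist3h2ba at 11.3 and Slc39a10 at 261.

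Another rich library stood apart in 1 case, CMA 2 with Slc25a24 low at 37.4 CPM. Among the poor libraries, Foxe1 was at 0.117 CPM in CMC 3 and Shh at 0.251 in Ctrl 5, each the highest of its set at very few counts. Ctrl 6 was low for Cdh1 at 69.4 CPM and for the follicle signalling list at a mean of 3.16. Col12a1 was low in Ctrl 2 at 1814 CPM, Rab33a low in CMA 1 at 1.08 and Zfp346 high in Ctrl 5 at 39.8.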

How the results depend on the processing

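The count of genes at least 2-fold higher in the rich set, 59, was 51 to 89 with 1 library left out at a time, highest without CMA 5 and lowest without Ctrl 3. The count of lower genes, 1, was 0 to 8 in the same way (8 without Ctrl 2), and 2 with TMM scaling, with a pseudocount of 0.1 or with edgeR's fold change. Dropping the rule on overlap, an alternative added after seeing the data, gave 114 higher and 17 lower genes, and a model with bandage as a term, also without that rule, gave 153 and 12. A score of the 5 shaft keratins alone kept all 6 rich and 4 of the poor libraries and gave 61 higher genes, 56 of them shared; a score of the 3 inner root sheath keratins chose the same libraries. In the intermediate libraries the 7 rising and 0 falling genes became 17 and 4 without a filter and 19 and 36 in DESeq2, and 3 to 8 rising and 0 to 4 falling with 1 library left out; the falling calls came without CM1 1 (1) and CM1 4 (4), and the fewest rising without CMC 5 (3). No cause was tested. No named gene changed sign with a call. Without a call, some rich minus poor differences did change sign over the alternatives. These were Fgf7 (-0.70 to 0.03), Ednrb (-0.55 to 0.18), Cd34 (-0.54 to 0.05), Lgr5 (-0.21 to 0.10) and Padi4 (-0.22 to 0.81). Most late shaft values in the poor set rest on a few counts, so small differences there were not detectable at this depth. No paired analysis was possible because replicate numbers were given in deposition order only.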
